A study of Mus musculus with 97 samples.

Results

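The genes described here act in homologous recombination, the Fanconi pathway and the DNA damage checkpoint. They were chosen by symbol: 31 mouse gene symbols were looked up in a count table of 37620 entries, and all 31 were found, in 32 entries, because Rad54b is listed under 2 Ensembl identifiers. All 32 entries passed the filter on low counts, among 16011 entries tested. The RNA came from 18 libraries of a mouse embryonic stem (ES) cell line, Sox2-AID, in which the pluripotency factor Sox2 is fused to a degron, so that adding the plant hormone auxin sends the fused protein to degradation. Cells were grown on gelatine with serum and LIF, and were sorted by Hoechst and GFP levels into early G1, late G1 and G2. In each phase 3 libraries came from cells given 0.5 mM auxin for 3 h and 3 from cells without it, so that all groups carry the tagged allele and n = 3 in every group. The labels record Hoechst at 20 µM in the last 20 min, and they name no parental line without the degron and no separate cultures, so p-values measure the spread between these libraries. Levels of Sox2 protein were not analysed here, and because auxin acts on the protein, the Sox2 transcript checks neither its loss nor the labels.

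Homologous recombination repairs a broken chromosome, or a collapsed replication fork, by copying the sister chromatid. The MRN complex finds the ends and starts to trim them, BRCA1 with BARD1 promotes the trimming, PALB2 and BRCA2 act in the strand exchange that follows, and helicases and nucleases resolve the joined molecules. The Fanconi core complex marks the FANCD2 and FANCI pair at crosslinked DNA, and ATM, ATR and their kinases CHK1 and CHK2 hold the cell cycle meanwhile. Mouse ES cells spend much of their cycle in S phase and rely heavily on this pathway.

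Total counts ran from 24841963 to 37587322 per library, and the 32 entries together held 0.135% to 0.191% of them. A list of 8 ES cell markers summed to 810 to 972 TPM, a level scaled for transcript length, while 8 fibroblast or feeder markers summed to at most 1.04 TPM and the endoderm, mesoderm, neuroectoderm and blood lists to at most 0.76 TPM. Of the 3 neuroectoderm markers 2 had an entry, and no marker with an entry was at 0 in all libraries. The sort was checked on 24 G1/S genes and 24 G2/M genes. In the untreated arm 20 of the G1/S genes were higher in late than in early G1, where 3.27% of all tested entries were called higher. Of the G2/M genes 22 were higher in G2 than in late G1 (2.72% of all) and 13 higher in G2 than in early G1 (1.9%). From early to late G1, 3 G2/M genes were higher and 10 lower. The 3 untreated libraries numbered 3 stood apart on the first principal component, which held 17.6% of the variance. Because each library is bulk RNA, fewer cells of a type and less RNA per cell cannot be told apart.

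To place the genes, the promoters of 5 of them are printed from RefSeq (build GRCm38.p6), as the 250 bases before the annotated start on the gene's own strand, 5′ to 3′. Brca1, Rad51ap1 and Topbp1 had the smallest p-values in the comparison of late with early G1, and Bard1 and Brca2 were the genes called for auxin. Capitals mark matches to E2F words (TTTCCCGC, TTTGGCGC, TTTCGCGC or TTTGCCGC), to the CHR words TTTGAA or TTCGAA, and to CCAAT, each on either strand.
Brca1 (chr11:101551956-101552205, minus strand): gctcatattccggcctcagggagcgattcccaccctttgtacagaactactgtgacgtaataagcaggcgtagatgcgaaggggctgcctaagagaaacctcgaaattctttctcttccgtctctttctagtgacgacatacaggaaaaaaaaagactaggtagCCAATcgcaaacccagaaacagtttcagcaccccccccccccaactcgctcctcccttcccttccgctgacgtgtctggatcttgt
Rad51ap1 (chr6:126939588-126939837, minus strand): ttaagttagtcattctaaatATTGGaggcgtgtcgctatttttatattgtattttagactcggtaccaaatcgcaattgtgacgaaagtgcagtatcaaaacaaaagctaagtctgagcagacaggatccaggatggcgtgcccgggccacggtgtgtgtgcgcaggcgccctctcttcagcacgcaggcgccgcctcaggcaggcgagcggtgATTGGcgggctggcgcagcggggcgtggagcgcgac
Topbp1 (chr9:103305077-103305326, plus strand): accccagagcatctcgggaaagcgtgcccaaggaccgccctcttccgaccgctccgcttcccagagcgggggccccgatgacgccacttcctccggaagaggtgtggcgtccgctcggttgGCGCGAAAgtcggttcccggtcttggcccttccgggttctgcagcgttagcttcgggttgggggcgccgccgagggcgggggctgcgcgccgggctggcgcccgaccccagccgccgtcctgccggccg
Bard1 (chr1:71102973-71103222, minus strand): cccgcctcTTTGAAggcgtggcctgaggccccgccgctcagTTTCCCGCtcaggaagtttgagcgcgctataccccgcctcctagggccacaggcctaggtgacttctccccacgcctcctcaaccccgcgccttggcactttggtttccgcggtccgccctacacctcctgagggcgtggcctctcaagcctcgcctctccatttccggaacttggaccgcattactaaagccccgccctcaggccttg
Brca2 (chr5:150522371-150522620, plus strand): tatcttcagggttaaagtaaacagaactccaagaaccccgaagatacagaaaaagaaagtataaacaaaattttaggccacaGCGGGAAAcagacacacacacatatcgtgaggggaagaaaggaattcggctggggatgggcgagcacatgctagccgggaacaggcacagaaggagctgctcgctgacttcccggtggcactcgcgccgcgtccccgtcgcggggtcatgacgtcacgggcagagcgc
Counted from the start, with bases before it negative, Topbp1 held an E2F word at -129, Bard1 an E2F word at -209 and a CHR word at -242, and Brca2 an E2F word at -168. Brca1 had CCAAT at -86 and Rad51ap1 at -36 and -230, and neither held an E2F word. These windows were available for 25 of the 31 symbols and were searched over 300 bases, 50 of them after the start. An E2F word was present in 6 of the 25 genes (24.0%: Bard1, Brca2, Chek2, Fancg, Rad51c and Topbp1), against 2.26% of all 32851 windows. CCAAT was found in 14 (56.0%) against 37.4%, CHR words in 3 (12.0%) against 19.2%, and the SOX words ACAATG or ACAAAG in 4 (16.0%) against 28.6%. Members were counted by gene, over 27 windows, and the background by window, so these shares differ in unit. The background held all windows and was not limited to the tested entries. A match in letters is a description of the window and was not tested for binding.

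Topbp1, which activates ATR at stalled forks, had the highest level of the set, with a mean of 7.54 TPM over the 18 libraries (4.63 to 10.31). Mre11a, the nuclease of the MRN complex, followed at 5.38 TPM (4.01 to 6.53), and Chek1, the effector kinase of ATR, at 5.34 TPM (4.22 to 6.71), so that these neighbours in the order overlapped. Chek2, the effector kinase of ATM, and Fanci had means of 4.01 TPM each, Fancd2 3.75 TPM and Brca1 3.41 TPM. At the low end stood Brip1, a helicase bound to BRCA1, at 0.908 TPM, Fancg at 0.901 TPM, Rad51c at 0.663 TPM (0.57 to 0.81) and the second Rad54b entry at 0.619 TPM (0.43 to 1.21). Brca2 had 2.08 TPM (1.28 to 2.57), below Brca1, with ranges that overlapped (1.98 to 5.65 TPM for Brca1).

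**Figure D1:**
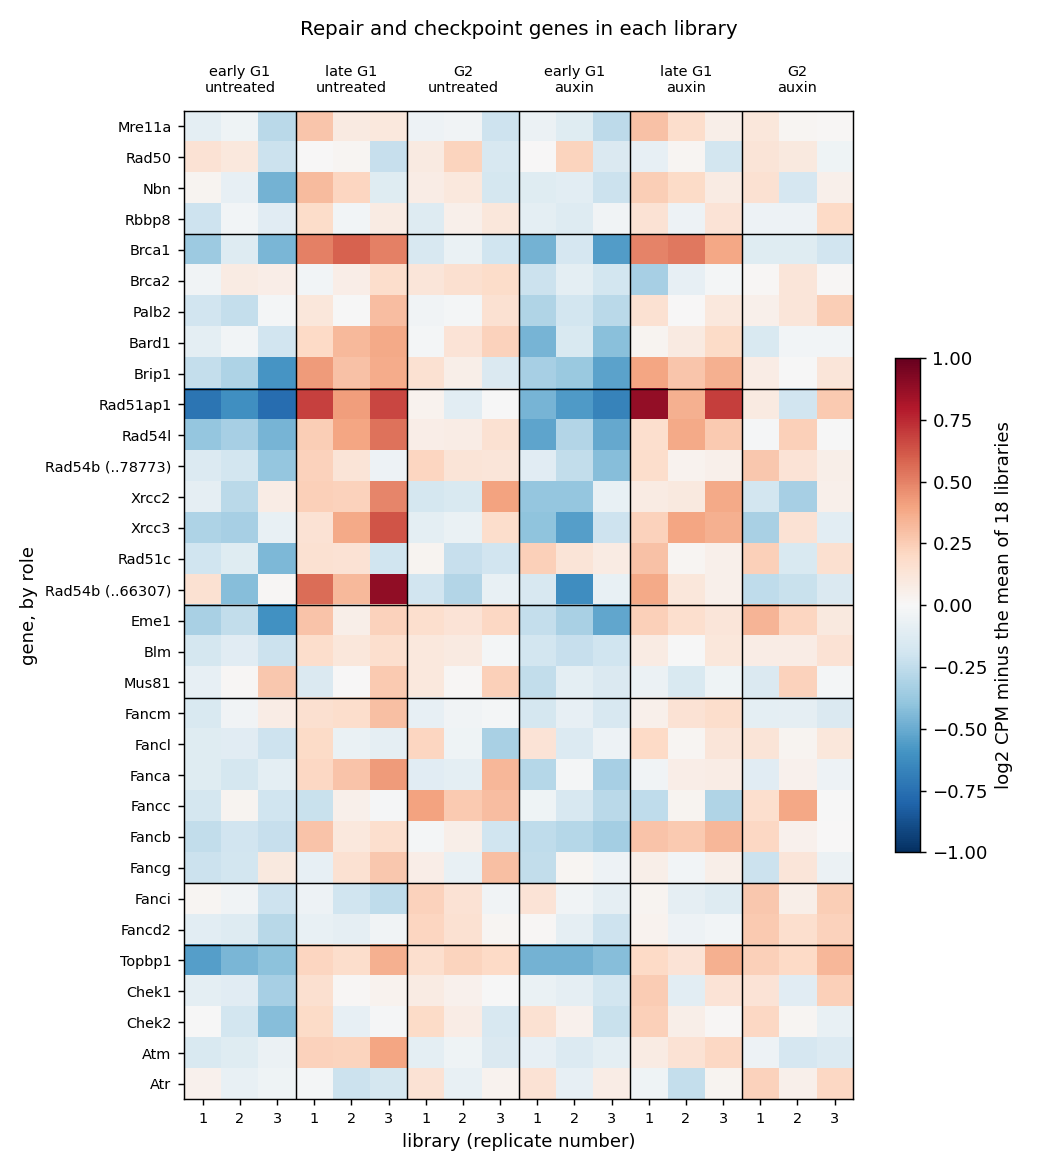
Each row is 1 of the 32 entries, ordered by role, and each column 1 of the 18 libraries; colour gives the log2 CPM minus the mean of that entry over all libraries, on a scale from -1 to 1. Rad51ap1 and Brca1 were highest in the 6 late G1 libraries, and Topbp1 was low in the 6 early G1 libraries and high in all others.

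Late G1 against early G1 was the comparison in which these genes moved most, and every call was upward. In the untreated arm 14 of the 32 entries were higher in late G1 and 0 lower, at an adjusted p under 0.05 in edgeR's quasi-likelihood test with Benjamini-Hochberg adjustment over all 16011 entries. Across all tested entries 7.02% were called, 3.27% as higher and 3.75% as lower. The median log2 fold change was 0.30 for the set and 0.00 for all tested entries. The auxin-treated arm, which consists of other libraries, gave 15 higher and 0 lower, with 7.42% of all entries called (3.21% as higher, 4.21% as lower) and a median of 0.26 for the set. The 12 genes called in both arms were Rad51ap1, Brca1, Rad54l, Brip1, Topbp1, Xrcc3, Eme1, Fancb, Bard1, Atm, Blm and Fancm, which is 85.7% of the untreated calls and 80.0% of the auxin calls. Over all tested entries the shared share was 75.3% and 76.7%. In 21 untreated and 18 auxin-treated entries the 3 late G1 libraries all lay above the 3 early G1 libraries, against 10.7% and 12.9% of all tested entries, and in 0 entries of either arm all below (13.2% and 15% of all).

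**Figure D2:**
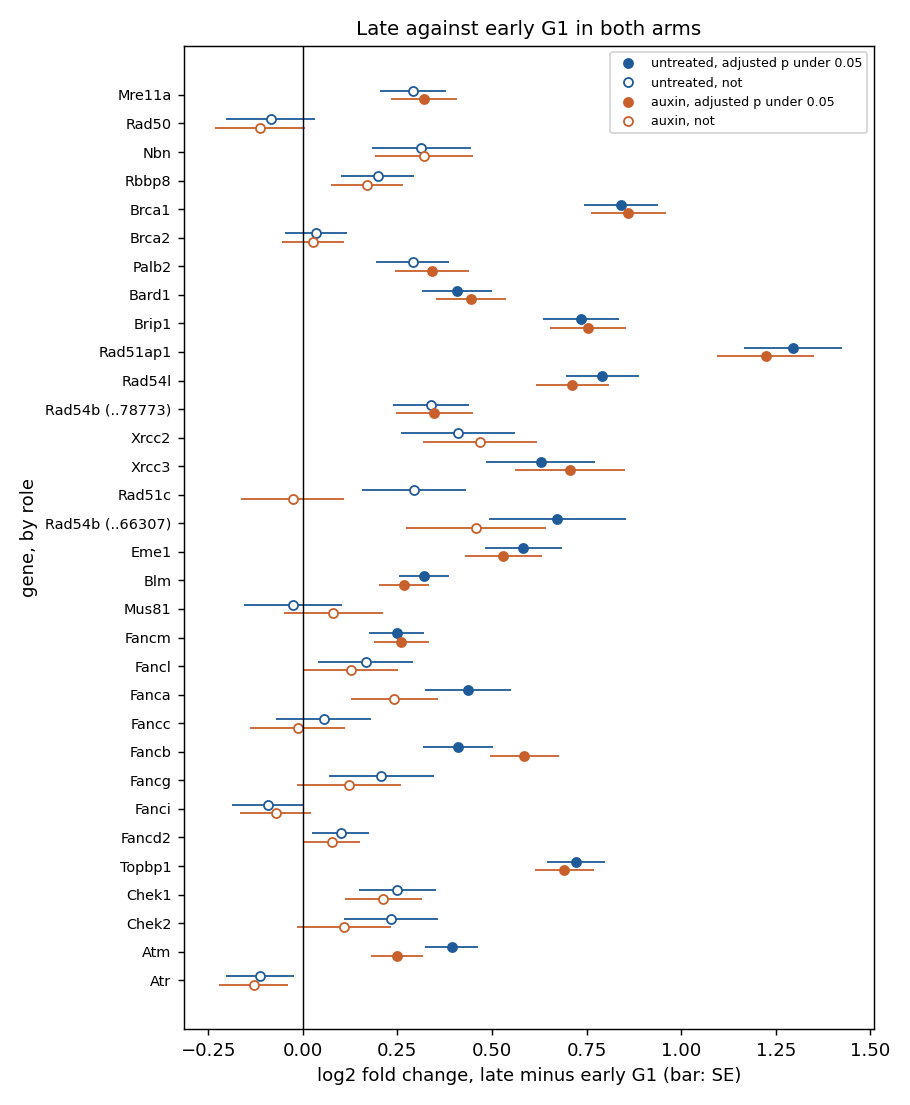
Log2 fold change of late minus early G1 for each of the 32 entries by role, in the untreated and the auxin-treated arm (n = 3 per group), with bars of 1 SE. The changes of Rad51ap1 (1.30 and 1.22), Brca1 (0.84 and 0.86) and Topbp1 (0.72 and 0.69) lay far to the right in both arms, while the Fancd2 and Fanci pair lay between -0.09 and 0.10.

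Among the genes of strand exchange, Rad51ap1, whose protein promotes the pairing of DNA strands, showed the largest change of the set. Without auxin it had 14.97, 16.2 and 14.7 CPM (counts scaled to the library size) in early G1, 39.9, 33.2 and 39.5 CPM in late G1, and 25.4, 23.1 and 24.7 CPM in G2. With auxin it had 17.9, 16.7 and 15.6 CPM in early G1, 45.6, 31.8 and 40.0 CPM in late G1, and 26.5, 21.7 and 29.7 CPM in G2. The 3 phases did not overlap in either arm, with late G1 highest and early G1 lowest. The level in late G1 was 2.46 times that in early G1 without auxin (log2 fold change 1.30 ± 0.13 SE, adjusted p = 7.32e-06) and 2.33 times with it (1.22 ± 0.13, adjusted p = 1.31e-05). Rad54l, a DNA translocase, had 30.99, 32.2 and 29.4 CPM in untreated early G1, 48.0, 53.2 and 59.1 CPM in late G1 and 42.4, 42.6 and 44.9 CPM in G2. All late G1 libraries stood above all others of that arm. The change from early to late G1 was 0.79 ± 0.10 (adjusted p = 6.72e-05), and 0.71 ± 0.10 with auxin (adjusted p = 0.000168).

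Xrcc3, also of this group, was a low-level gene that moved with them: 8.33, 8.21 and 9.77 CPM in untreated early G1 became 11.4, 13.4 and 16.0 CPM in late G1. The groups did not overlap, and the change was 0.63 ± 0.14 without auxin (adjusted p = 0.0121) and 0.71 ± 0.14 with it (adjusted p = 0.00538). The untreated call was lost without early G1 replicate 1, early G1 replicate 2 or late G1 replicate 3, with a highest adjusted p of 0.0595. Rad54b, a relative of Rad54l, is split between ENSMUSG00000078773 (23.95 CPM on average) and ENSMUSG00000066307 (4.54 CPM), the second of which the symbol reference used here does not hold, so how reads were divided between them is uncertain. The first entry changed by 0.34 ± 0.10 (adjusted p = 0.0503) without auxin and by 0.35 ± 0.10 (adjusted p = 0.0427) with it, and the second by 0.67 ± 0.18 (adjusted p = 0.0303) and 0.46 ± 0.18 (adjusted p = 0.151). The auxin call of the first held in 1 and the untreated call of the second in 2 of 6 fits without a library (highest adjusted p = 0.170 and 0.142). With the entries summed, a choice made after seeing the data, Rad54b rose in both arms, by 0.40 (adjusted p = 0.00957) and 0.37 (adjusted p = 0.0158). Xrcc2 and Rad51c, of the same group, were not called. Xrcc2 gave 0.41 ± 0.15 (adjusted p = 0.116) and 0.47 ± 0.15 (adjusted p = 0.0677), and Rad51c 0.29 ± 0.14 (adjusted p = 0.229) and -0.03 ± 0.14 (adjusted p = 0.936).

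Of the 5 genes of the BRCA complexes, Brca1, Brip1 and Bard1 rose into late G1 in both arms and Brca2 was not called. Brca1 had 76.9, 90.7 and 72.1 CPM in untreated early G1, 140.5, 148.5 and 140.5 CPM in late G1, and 88.6, 94.5 and 86.3 CPM in G2. Its auxin-treated libraries had 71.3, 88.0 and 67.1 CPM, 139, 143 and 129 CPM, and 91.1, 90.7 and 86.7 CPM in the same order. Late G1 stood apart from both other phases in each arm, whereas early G1 and G2 overlapped. The rise was 0.84 ± 0.10 (1.79-fold, adjusted p = 4.22e-05) without auxin and 0.86 ± 0.10 (1.82-fold, adjusted p = 3.18e-05) with it.

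Brip1 had 19.9, 19.0 and 15.7 CPM in untreated early G1 and 31.6, 28.8 and 30.4 CPM in late G1, with no overlap. That was a change of 0.73 ± 0.10 (adjusted p = 0.000179), and of 0.75 ± 0.10 with auxin (adjusted p = 0.000131). Bard1, the partner without which BRCA1 is unstable, had 50.0, 52.6 and 46.8 CPM in untreated early G1 and 61.4, 67.1 and 69.7 CPM in late G1. These groups also lay apart, with a change of 0.41 ± 0.09 (adjusted p = 0.0119), and of 0.44 ± 0.09 with auxin (adjusted p = 0.00625). The untreated call for Bard1 missed the threshold without early G1 replicate 3 (adjusted p = 0.0516). Brca2 differed between late and early G1 by 0.03 ± 0.08 in either arm (adjusted p = 0.860 and 0.889). Palb2, which bridges BRCA1 and BRCA2, gave 0.29 ± 0.10 (adjusted p = 0.0817) without auxin and 0.34 ± 0.10 (adjusted p = 0.0381) with it, a call that was lost without any 1 of the 6 auxin-treated libraries concerned (highest adjusted p = 0.140).

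**Figure D3:**
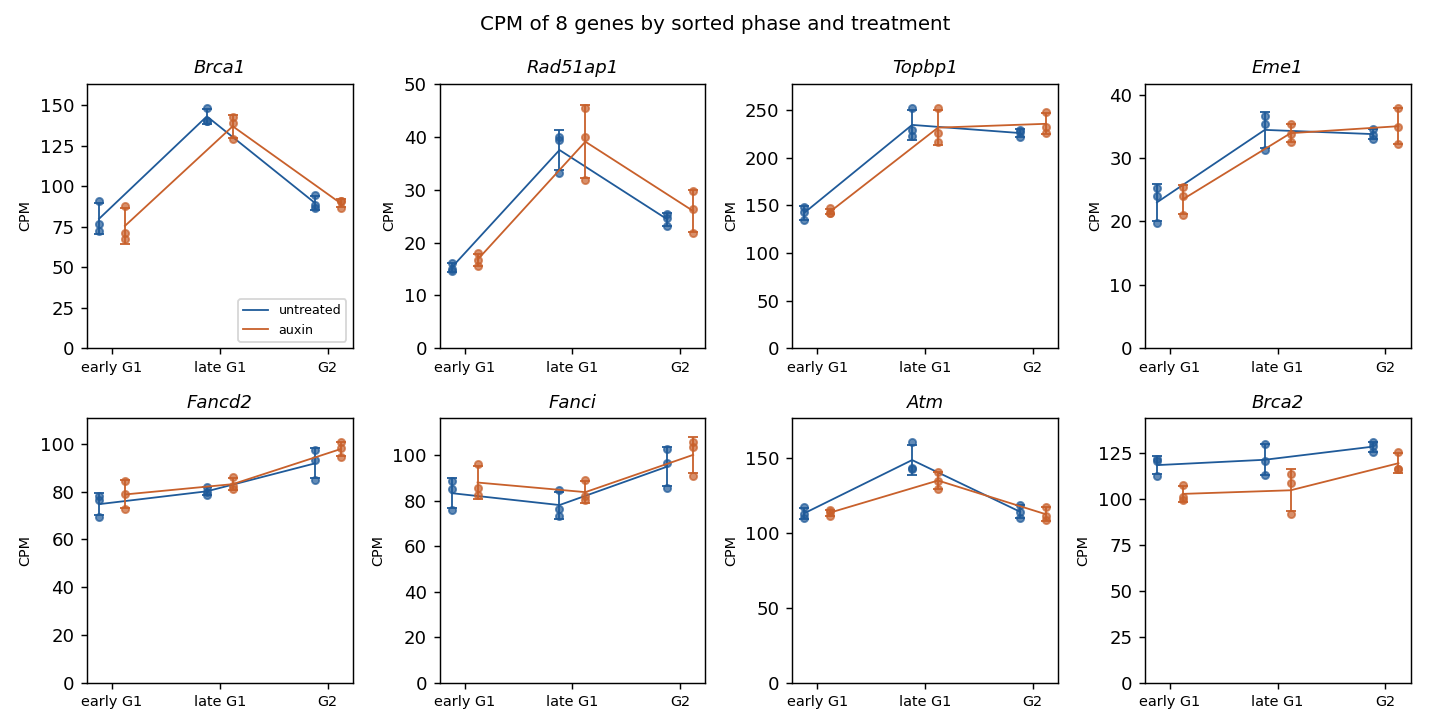
CPM on the y axis for 8 genes in each of the 18 libraries, by sorted phase on the x axis and by treatment; each point is a library. Brca1 ran from 67.1 to 94.5 CPM in early G1 and G2 and from 129 to 148.5 CPM in late G1, whereas Topbp1 ran from 222 to 248 CPM in G2 and from 217 to 253 CPM in late G1.

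In the checkpoint group Topbp1 and Atm rose and the kinases Chek1, Chek2 and Atr were not called. Topbp1 had 134, 143 and 149 CPM in untreated early G1, 229, 222 and 252 CPM in late G1, and 222, 229 and 227 CPM in G2. With auxin it had 142, 142 and 147 CPM, 226, 217 and 253 CPM, and 233, 226 and 248 CPM. Early G1 was below all other libraries in each arm, and late G1 and G2 overlapped. From early to late G1 it rose by 0.72 ± 0.08 (1.65-fold, adjusted p = 1.7e-05) and, with auxin, by 0.69 ± 0.08 (1.62-fold, adjusted p = 2.55e-05). Atm, the kinase that senses double-strand breaks, had 110.0, 112 and 117 CPM in untreated early G1, 143, 142 and 160.4 CPM in late G1, and 114, 119 and 110.1 CPM in G2. Late G1 did not overlap with either neighbour, and the rise was 0.39 ± 0.07 (adjusted p = 0.00204). With auxin it was 0.25 ± 0.07 (adjusted p = 0.0357), and that call held in 1 of 6 fits without a library (highest adjusted p = 0.121). Chek1 gave 0.25 ± 0.10 and 0.21 ± 0.10 (adjusted p = 0.158 and 0.227), Chek2 0.23 ± 0.13 and 0.11 ± 0.12 (adjusted p = 0.308 and 0.653), and Atr, the kinase of stalled forks, -0.11 ± 0.09 and -0.13 ± 0.09 (adjusted p = 0.528 and 0.427).

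Among the genes that process joined molecules, Eme1, the partner of the nuclease Mus81, had 24.0, 25.3 and 19.8 CPM in untreated early G1 and 36.7, 31.3 and 35.3 CPM in late G1. It did not overlap and rose by 0.58 ± 0.10 (adjusted p = 0.0018), and by 0.53 ± 0.10 with auxin (adjusted p = 0.00332). Mus81 itself changed by -0.03 ± 0.13 and 0.08 ± 0.13 (adjusted p = 0.939 and 0.764), so that within this pair only Eme1 was called; the difference between the 2 genes was not tested. Blm, the helicase mutated in Bloom syndrome, had 51.0, 53.3 and 49.7 CPM in untreated early G1 and 65.1, 62.3 and 64.9 CPM in late G1. It rose by 0.32 ± 0.07 (adjusted p = 0.00594), and by 0.27 ± 0.07 with auxin (adjusted p = 0.0166), where the call held in 2 of 6 fits without a library (highest adjusted p = 0.0670).

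Of the 6 Fanconi core genes 3 were called in the untreated arm and 2 with auxin, and differences between these genes were not tested. Fancb, which holds the catalytic part of the core together, rose in both arms: 11.8, 12.3 and 11.9 CPM in untreated early G1 became 17.1, 15.03 and 15.7 CPM in late G1 (0.41 ± 0.09, adjusted p = 0.0108), and the change with auxin was 0.59 ± 0.09 (adjusted p = 0.000692). The groups lay apart in both arms, and the untreated call was lost without late G1 replicate 1 (adjusted p = 0.0537). Fancm, the translocase that brings the core to DNA, gave 0.25 ± 0.07 (adjusted p = 0.0445) and 0.26 ± 0.07 (adjusted p = 0.0343), and each call held in 1 of 6 fits without a library (highest adjusted p = 0.188 and 0.135). Fanca, a large subunit of the core, gave 0.44 ± 0.11 (adjusted p = 0.0245), held in 1 of 6 such fits (highest adjusted p = 0.0905), and 0.24 ± 0.11 with auxin (adjusted p = 0.222). Fancc, Fancg and Fancl, the ubiquitin ligase, were not called, with untreated changes of 0.06 ± 0.13, 0.21 ± 0.14 and 0.17 ± 0.13. The substrates Fancd2 and Fanci changed by 0.10 ± 0.08 and -0.09 ± 0.09 (adjusted p = 0.494 and 0.630), and with auxin by 0.08 ± 0.08 and -0.07 ± 0.09.

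Of the 4 break sensing and resection genes, 0 were called in the untreated arm and 1 with auxin. Mre11a had 73.6, 76.2 and 65.1 CPM in untreated early G1 and 95.3, 83.4 and 84.3 CPM in late G1. The groups did not overlap, at 0.29 ± 0.09 (adjusted p = 0.0522). With auxin the change was 0.32 ± 0.09 (adjusted p = 0.0312), and the call held in 1 of 6 fits without a library (highest adjusted p = 0.148). Nbn, the third MRN subunit, gave 0.31 ± 0.13 and 0.32 ± 0.13 (adjusted p = 0.168 and 0.153). Rad50, the clamp of the complex, gave -0.08 ± 0.12 and -0.11 ± 0.12 (adjusted p = 0.742 and 0.618). Rbbp8, which encodes the resection factor CtIP, gave 0.20 ± 0.10 and 0.17 ± 0.10 (adjusted p = 0.248 and 0.320).

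The calls for Rad51ap1, Brca1, Rad54l, Brip1, Topbp1 and Eme1 in this comparison held without any 1 of the 6 libraries in both arms. Libraries of the same number deviated together, which the test behind the values above leaves out. With the replicate number as a block 21 entries were called higher without auxin (21.8% of all tested entries called) and 18 with it (22.6%). The 7 added in the untreated arm were Nbn, Xrcc2, Chek1, Chek2, Mre11a, Palb2 and the first Rad54b entry, at blocked changes of 0.24 to 0.41. Fits of only the groups compared gave 6 calls without auxin (Rad51ap1, Brca1, Rad54l, Brip1, Topbp1 and Eme1, with 2.1% of all tested entries called) and 10 with it (5.76%). On the scale of TPM the calls shrank: limma on log2(TPM + 1) called Rad51ap1 and Topbp1 without auxin, among 239 genes in all, and Rad51ap1 with auxin, among 152.

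Between early G1 and G2 the calls were again upward. In the untreated arm 7 of 32 entries were higher in G2 and 0 lower, with 3.6% of all tested entries called (1.9% as higher, 1.7% as lower) and a set median of 0.18. With auxin 10 were higher and 0 lower, with 3.88% of all entries called (2.09% as higher, 1.79% as lower) and a median of 0.20. All 3 G2 libraries lay above all early G1 libraries in 12 untreated and 13 auxin-treated entries (10.2% and 10.7% of all tested entries), and below in 0 of either arm (11.8% and 12.3%). All 7 untreated calls were among the 10: Topbp1, Eme1, Rad51ap1, Rad54l, Brip1, Fancd2 and the first Rad54b entry. Topbp1 rose by 0.67 ± 0.08 (adjusted p = 4.04e-05) and 0.72 ± 0.08 (adjusted p = 1.55e-05), Eme1 by 0.55 ± 0.10 (adjusted p = 0.00421) and 0.58 ± 0.10 (adjusted p = 0.00264), and Rad54l by 0.49 ± 0.10 (adjusted p = 0.00774) and 0.52 ± 0.10 (adjusted p = 0.00411). These 3 genes kept the call without any 1 library, as did Rad51ap1 without auxin (0.68 ± 0.13, adjusted p = 0.00583). Without the 3 untreated libraries numbered 3, however, 1 of the 7 untreated calls was left (1.36% of all tested entries called), that of Topbp1 (0.70, adjusted p = 0.0004), while Eme1, Rad54l and Rad51ap1 stood at 0.44, 0.43 and 0.64 (adjusted p = 0.0746, 0.0768 and 0.0802). With auxin Rad51ap1 rose by 0.63 ± 0.13 (adjusted p = 0.00861), and the call was lost without G2 replicate 3 (adjusted p = 0.0610). Brip1 rose by 0.40 ± 0.10 (adjusted p = 0.0341), a call that held in 2 of 6 fits without a library (highest adjusted p = 0.162), and by 0.47 ± 0.10 with auxin (adjusted p = 0.0109), lost without early G1 replicate 3 or G2 replicate 3 (highest adjusted p = 0.0640). The first Rad54b entry rose by 0.39 ± 0.10 (adjusted p = 0.0407) and 0.41 ± 0.10 (adjusted p = 0.0261), calls that held in 0 and 2 of 6 such fits (highest adjusted p = 0.178 and 0.128).

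Fancd2 was the one member called in G2 against early G1 in both arms and in late against early G1 in neither. It had 78.1, 76.6 and 69.4 CPM in untreated early G1, 79.7, 78.7 and 81.9 CPM in late G1, and 97.2, 93.1 and 84.9 CPM in G2. With auxin it had 84.5, 79.0 and 72.8 CPM, 85.95, 81.0 and 82.3 CPM, and 100.5, 94.4 and 98.3 CPM. In both arms the G2 libraries stood above the others and the G1 phases were close. From early G1 to G2 it rose by 0.30 ± 0.08 (adjusted p = 0.0363) and 0.31 ± 0.08 (adjusted p = 0.0256), calls that held in 1 and 2 of 6 fits without a library (highest adjusted p = 0.159 and 0.127). Against late G1 the changes were 0.20 ± 0.08 (adjusted p = 0.163) and 0.23 ± 0.08 (adjusted p = 0.0793), without a call. Its partner Fanci had 88.9, 85.3 and 76.0 CPM in untreated early G1, 84.8, 76.3 and 73.5 CPM in late G1 and 103, 96.7 and 85.7 CPM in G2. The G2 libraries lay above late G1 and overlapped with early G1, and the change from early G1 was 0.19 ± 0.09 in both arms (adjusted p = 0.322 for each). With auxin Blm (0.30 ± 0.07, adjusted p = 0.0132), Palb2 (0.39 ± 0.10, adjusted p = 0.0275) and Fancb (0.38 ± 0.09, adjusted p = 0.0261) were also higher in G2 than in early G1. The Blm call was lost without early G1 replicate 2 or G2 replicate 3 (highest adjusted p = 0.0639), and those of Palb2 and Fancb held in 1 and 2 of 6 such fits (highest adjusted p = 0.131 and 0.122). With the replicate block 12 entries were called higher without auxin (14.7% of all tested entries called) and 16 with it (15.2%). Fits of only the groups compared gave 3 calls without auxin (Topbp1, Rad51ap1 and Rad54l, with 0.962% of all tested entries called) and 5 with it (2.05%), and limma on log2(TPM + 1) called 0 in either arm, among 86 and 63 genes.

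From late G1 to G2 the calls were downward. In the untreated arm 0 entries were higher and 5 lower, with 5.04% of all tested entries called (2.72% as higher, 2.32% as lower) and a set median of -0.10. With auxin 0 were higher and 3 lower, with 5.91% of all entries called (3.48% as higher, 2.43% as lower) and a median of -0.05. The G2 libraries all lay below late G1 in 10 entries of each arm (9.79% and 11.2% of all tested entries), and all above in 3 and 4 (10.9% and 12.1%). Brca1, Rad51ap1 and Atm were lower in both arms. Brca1 fell by 0.67 on the log2 scale (SE 0.10, adjusted p = 0.000255) and, with auxin, by 0.61 (SE 0.10, adjusted p = 0.000617). Rad51ap1 fell by 0.62 (SE 0.13, adjusted p = 0.00611) and by 0.59 (SE 0.13, adjusted p = 0.00762), where the second call was lost without late G1 replicate 1 (adjusted p = 0.0583). Atm fell by 0.38 (SE 0.07, adjusted p = 0.00266) and by 0.26 (SE 0.07, adjusted p = 0.0309), where the second call was lost without any 1 library (highest adjusted p = 0.115).

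Fancm (-0.26 ± 0.07, adjusted p = 0.0434) and the second Rad54b entry (-0.79 ± 0.18, adjusted p = 0.0156) were lower without auxin, and at -0.23 ± 0.07 (adjusted p = 0.0716) and -0.40 ± 0.18 (adjusted p = 0.252) with it. The Fancm call was lost without any 1 library, and that of Rad54b without late G1 replicate 3, G2 replicate 1 or G2 replicate 2 (highest adjusted p = 0.0763). The values of this comparison share the late G1 libraries of their arm with the rise described above. In separate libraries, 3 of the 14 genes higher in untreated late G1 were lower in auxin-treated G2 (Atm, Brca1 and Rad51ap1, 21.4%), against 35.9% of all genes called higher. Topbp1 and Eme1, by contrast, differed between G2 and late G1 by -0.05 ± 0.08 and -0.03 ± 0.10 without auxin and by 0.02 ± 0.08 and 0.05 ± 0.10 with it (adjusted p from 0.804 to 0.932).

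Blocking by replicate number changed this comparison most. It gave 4 entries higher and 10 lower without auxin (15.9% of all tested entries called), and 5 higher and 7 lower with auxin (17.7%). Fancd2, Fanci, Fancc and Atr were higher in G2 than in late G1 in both arms under the block, and in no arm without it. Fancc, a core subunit, had 9.00, 10.8 and 10.4 CPM in untreated late G1 and 13.8, 12.6 and 12.9 CPM in G2. All G2 libraries were above late G1, at 0.38 ± 0.12 without the block (adjusted p = 0.0916) and 0.39 ± 0.10 with it (adjusted p = 0.0115). Xrcc2, Xrcc3 and Brip1 were the genes lower in both arms under the block and in neither without it, at blocked values of -0.41 to -0.28. Fits of only the groups compared called 2 entries lower without auxin, Brca1 and Rad51ap1 (2.13% of all tested entries called), and 1 with it, Brca1 (2.82%). Without the 3 untreated libraries numbered 3, Brca1 and Atm were the 2 lower entries without auxin (3.14% of all tested entries called). With auxin 6 entries were then called (7.83%): Atm, Brca1, Brip1, Fancd2, Fancm and Rad51ap1. In the fit of all 18 libraries Fancd2 had a positive change (0.23) and the others a negative one. Limma on log2(TPM + 1) called 2 entries lower without auxin, Rad51ap1 and the second Rad54b entry, among 202 genes, and 0 with auxin, among 179.

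**Figure D4:**
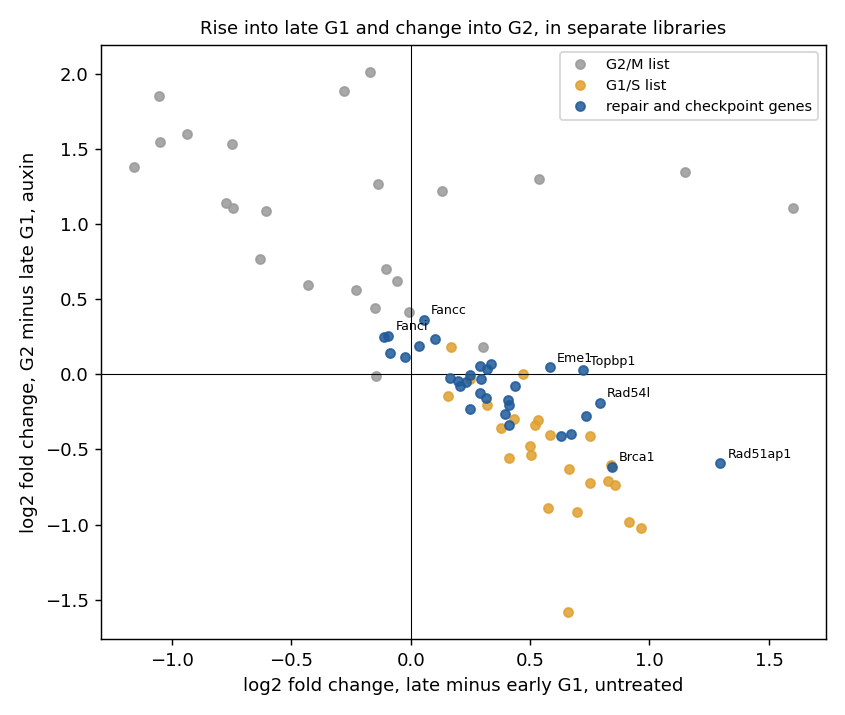
Each blue point is 1 of the 32 entries. Orange points are genes of the G1/S list and grey points genes of the G2/M list, which are no members. The x axis gives the log2 fold change from early to late G1 without auxin. The y axis gives that from late G1 to G2 with auxin, so that the 2 axes use different libraries. Rad51ap1 (1.30 and -0.59) and Brca1 (0.84 and -0.61) lie at the lower right, and Topbp1 (0.72 and 0.02) and Eme1 (0.58 and 0.05) lie near 0 on the y axis.

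Between auxin-treated and untreated cells 2 of the 32 entries were called in the average of the phases, both lower. The share was near the 5.68% of all tested entries called in either direction, of which 3.09% were called lower. Within single phases, without the replicate block, the shares of all entries called leave less than 1 call for a set of 32, and 0 were made. In early G1, late G1 and G2, 0 of the 32 entries were called by edgeR's quasi-likelihood test, where 0.106%, 1.02% and 0.668% of all tested entries were called (0.0812%, 0.493% and 0.387% as higher, 0.025%, 0.525% and 0.281% as lower). At an unadjusted p under 0.05 there were 3, 4 and 0 entries, and DESeq2 called 0 in each phase. The auxin-treated libraries all lay above the untreated ones in 1, 0 and 1 entries (5.25%, 6.8% and 5.47% of all tested entries) and all below in 3, 3 and 2 (6.07%, 6.9% and 5.5%). The medians of the set were -0.02, -0.02 and 0.01. Brca1 differed between auxin-treated and untreated libraries by -0.08 (95% interval -0.29 to 0.13) in early G1, -0.06 (-0.27 to 0.15) in late G1 and 0.00 (-0.22 to 0.21) in G2. Rad51ap1 differed by 0.13 (-0.15 to 0.42), 0.06 (-0.21 to 0.33) and 0.09 (-0.19 to 0.37). Auxin-treated Rad51c, with 10.3, 9.56 and 9.27 CPM against 7.63, 8.04 and 6.42 CPM without auxin in early G1, was the largest difference upward in any phase. Its groups did not overlap there, at 0.40 ± 0.14, with an adjusted p of 0.697.

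Averaged over the 3 phases, 0 entries were higher with auxin and 2 lower, with 5.68% of all tested entries called (2.6% as higher, 3.09% as lower). These were Bard1 and Brca2. Untreated Bard1 had 50.0, 52.6 and 46.8 CPM in early G1, 61.4, 67.1 and 69.7 CPM in late G1 and 52.9, 58.8 and 62.7 CPM in G2. Auxin-treated Bard1 had 38.7, 48.1 and 40.1 CPM, 54.7, 56.9 and 61.3 CPM, and 48.1, 52.6 and 52.7 CPM. The late G1 and G2 groups lay just apart (61.3 against 61.4 CPM, and 52.7 against 52.9 CPM), the early G1 groups overlapped, and Bard1 was lower with auxin in 9 of 9 pairs of libraries with the same number. Its average log2 fold change was -0.21 ± 0.05 (adjusted p = 0.0286). Brca2 had 113, 122 and 121 CPM in untreated early G1, 114, 121 and 130.4 CPM in late G1, and 126, 129 and 131 CPM in G2. Auxin-treated Brca2 had 99.7, 108 and 102 CPM, 92.0, 109 and 114 CPM, and 116, 126 and 117 CPM. The groups lay apart in early G1 and overlapped in the other phases. Brca2 was lower in 9 of 9 pairs, by -0.17 ± 0.05 on average (adjusted p = 0.0376). The G2 pairs among these were not taken as paired, with a lowest correlation of 0.05. Same-numbered libraries also deviated together across phases, so the 9 pairs are not independent. The share of all tested entries with 9 of 9 was not computed.

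Leaving out 1 library ended the call for Bard1 in 9 of 18 fits (highest adjusted p = 0.0759) and for Brca2 in 11 of 18 (highest adjusted p = 0.0813). Without the 3 untreated libraries numbered 3 neither was called, at -0.19 (adjusted p = 0.0858) and -0.15 (adjusted p = 0.137). Without the filter on low counts neither was called (adjusted p = 0.0602 and 0.0962), and on log2(TPM + 1) Bard1 was and Brca2 was not (adjusted p = 0.0480 and 0.0559). Xrcc2 and Fancm were also lower in 9 of 9 pairs and Fancd2 was higher in 9 of 9, and these were not called, at -0.17 ± 0.09, -0.09 ± 0.04 and 0.07 ± 0.04 (adjusted p = 0.246, 0.224 and 0.319). The limits of the pairs given above hold for these genes as well. Rad51c averaged 0.23 ± 0.08 (adjusted p = 0.0924). With the replicate block Xrcc2 was called lower (adjusted p = 0.0056) and Rad51c higher (adjusted p = 0.0112), beside Bard1 and Brca2, where 24.6% of all tested entries were called. In late G1 alone the block called Brca2 (-0.21 ± 0.06, adjusted p = 0.0295), where 5.95% of all entries were called.

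**Figure D5:**
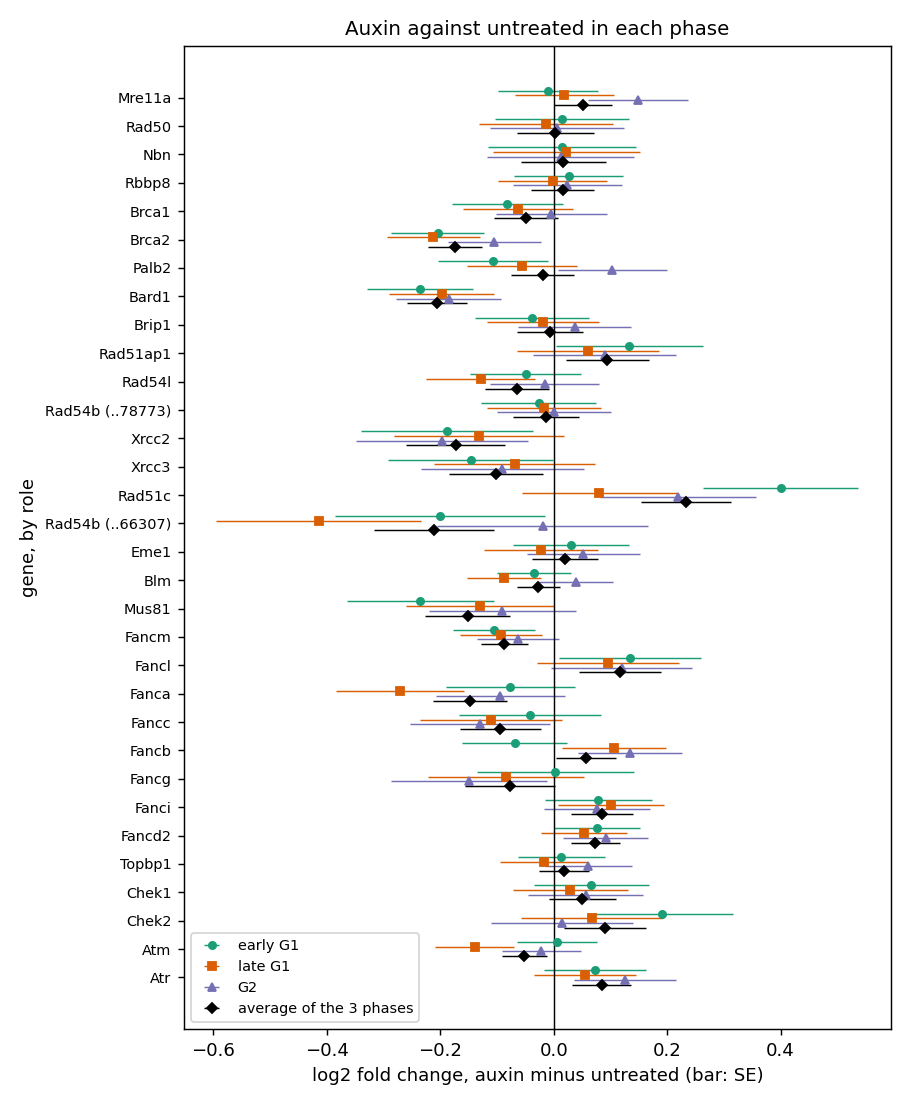
Log2 fold change of auxin-treated minus untreated libraries for each of the 32 entries by role in early G1, late G1 and G2 (n = 3 per group) and in their average, with bars of 1 SE. Bard1 (-0.24, -0.20 and -0.18) and Brca2 (-0.20, -0.21 and -0.10) lie left of 0 in all phases, and Rad51c in early G1 (0.40) lies farthest to the right.

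The step between phases was also compared between the arms, as the difference of the auxin effect. Of the 32 entries 0 were called for late against early G1, G2 against early G1 or G2 against late G1, and 0% of all tested entries were called in each. No entry had an unadjusted p under 0.05 in any of these, and DESeq2 called 0 of the 32. The intervals were wide. For Brca1 the difference of the late against early G1 step was 0.02 (95% interval -0.28 to 0.32), for Rad51ap1 -0.07 (-0.47 to 0.32) and for Rad51c -0.32 (-0.74 to 0.10). The sign of the fold change was the same in both arms for 29, 28 and 27 of 32 entries in late against early G1, G2 against early G1 and G2 against late G1. The same share over all tested entries was not computed, so whether this agreement is particular to the set was not tested.

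Genes of the same pathways outside the set are given as counts, to be read against the 7.02% of all tested entries called in this comparison without auxin and 7.42% with it; no list was tested against the set. Of 26 other homologous recombination genes, 5 were higher in untreated late than early G1 and 0 lower (median 0.22), among them the resection nucleases Exo1 (0.88 ± 0.09, adjusted p = 1.5e-05) and Dna2 (0.41 ± 0.06, adjusted p = 0.000418) and the single-strand binding subunits Rpa2 (0.67 ± 0.08, adjusted p = 6.98e-05) and Rpa1 (0.55 ± 0.13, adjusted p = 0.0132). With auxin 6 were higher and 0 lower. Of 13 other Fanconi genes 1 was higher (median 0.01), and with auxin 2. Of 18 other checkpoint genes 5 were higher and 0 lower in each arm, including Clspn, the mediator of CHK1 activation (0.76 ± 0.10, adjusted p = 0.000195), Wee1, the inhibitory kinase of CDK1 (0.79 ± 0.14, adjusted p = 0.00185), and the histone gene H2afx (1.12 ± 0.22, adjusted p = 0.00464). At these shares less than 1 call falls on a list of 9 or 12 genes, and 0 of 9 end joining genes and 0 of 12 nucleotide excision repair genes were called in either arm, with untreated medians of 0.05 and 0.03, and of 7 mismatch repair genes 1 was higher in each arm and 1 lower with auxin. The 24 G1/S genes gave 20 higher and 0 lower (median 0.55) and the 24 G2/M genes 3 higher and 10 lower (median -0.20) in the same untreated comparison, so that the set's median of 0.30 lay between them; their part in the result was not tested.

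From late G1 to G2 without auxin 5.04% of all tested entries were called, 2.32% as lower. Of the 26 other recombination genes 6 were lower and 0 higher, with Rpa2 at -0.51 ± 0.08 (adjusted p = 0.000826), Exo1 at -0.51 ± 0.09 (adjusted p = 0.00234) and Dna2 at -0.31 ± 0.06 (adjusted p = 0.00509). Clspn was lower as well (-0.65 ± 0.10, adjusted p = 0.000719). In untreated G2 against early G1, 1 of the 18 other checkpoint genes and 2 of the 13 other Fanconi genes were higher, where 3.6% of all entries were called. Wee1 rose by 1.22 ± 0.14 (adjusted p = 3.4e-05), and was already higher in late G1 (0.79 ± 0.14). Ube2t, the ubiquitin-conjugating partner of Fancl, rose by 0.69 ± 0.13 (adjusted p = 0.00471), and with auxin by 0.88 ± 0.13 (adjusted p = 0.000451). Usp1, which removes ubiquitin from FANCD2, rose by 0.32 ± 0.09 (adjusted p = 0.0427) and 0.40 ± 0.09 (adjusted p = 0.0122). Ercc4, a nuclease that unhooks crosslinks, was lower with auxin in late G1 (-0.58 ± 0.13, adjusted p = 0.0426) and G2 (-0.68 ± 0.13, adjusted p = 0.0170), and by -0.53 ± 0.08 on average (adjusted p = 0.000255). On average Etaa1, a second activator of ATR (-0.23 ± 0.05, adjusted p = 0.00412), and Mdc1, which binds marked chromatin at breaks (-0.30 ± 0.08, adjusted p = 0.0255), were also lower. So were Polm, a polymerase of end joining (-0.50 ± 0.14, adjusted p = 0.0447), and Ercc2, a helicase of nucleotide excision repair (-0.26 ± 0.07, adjusted p = 0.0471). These 5 were the genes called in the average among companion repair and checkpoint lists of 26, 13, 18, 9, 7 and 12 tested genes. All 5 were lower, where 3.09% of all entries were called lower and 5.68% in either direction. Whether these lists stand apart from all entries was not tested. Of 14 p53 targets 2 were higher on average, where 2.6% of all entries were called higher, Btg2 (0.66 ± 0.06, adjusted p = 1.03e-06) and Mdm2 (0.25 ± 0.05, adjusted p = 0.00271), and 0 lower. The G1/S and G2/M lists held 0 called genes in any auxin contrast, with medians of 0.04 and 0.07 in the average.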

How the data were processed

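RNA-seq of 18 libraries was analysed; the ChIP-seq, MNase-seq and ATAC-seq libraries and the site profiles were not analysed here. The authors deposited a table of expected counts per gene, which the values show to be rounded to whole numbers, and a table of TPM, given to 2 decimals. Per the submitters' processing notes, the tools were MACS2, Bowtie2, RSEM and STAR and the build mm9; their versions and roles, and whether counting used strand, are not given in the sources used here. Each library's group and number come from its title.

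The members and gene lists were chosen with earlier results of these data known. Counts were filtered with filterByExpr by group (16011 of 37620 entries kept), TMM-scaled and then tested in R 4.3.3 with edgeR 4.0.16, by a robust quasi-likelihood F test fitted to the means of 6 groups over the 18 libraries together (12 residual degrees of freedom), with a common biological coefficient of variation of 0.14 (median over members 0.09). Calls required an adjusted p (Benjamini-Hochberg, over all tested entries) under 0.05. Each SE is the absolute log2 fold change over the square root of its F statistic, and 95% intervals use a t distribution with 12 degrees of freedom. CPM were computed from the deposited counts and the TMM-scaled library size. TPM served for levels between genes and, with limma 3.58.1 and a pseudocount of 1 or 0.1, as an alternative. DESeq2 1.42.0, other filters and size factors, a replicate block, fits of only the groups compared, and fits without libraries were further alternatives. The edgeR steps were run on simulated data in which libraries were drawn independently. That run does not cover the correlation of same-numbered libraries, and its outcome is not given here.

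Replicate numbers were taken to pair libraries where deviations from the group means of every same-numbered pair correlated at over 0.1. This held for all phase comparisons (0.19 to 0.50) and for auxin in early and late G1 (0.22 to 0.29), and not in G2 (lowest 0.05). The main test did not use this pairing, so its calls, SE and adjusted p-values leave it out. The replicate block used it. All 31 symbols are named; values per library are given for up to 3 members of each role with the smallest p and for those called for auxin, and up to 4 called genes of a companion list are named. Values per library of some further members named in the text were added after they were seen. Promoter sequences are RefSeq's (GRCm38.p6) and were matched by symbol, whereas the deposited tables carry no coordinates.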

Additional observations from a re-analysis of the deposited data

How the results depend on the processing

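None of the 56 called changes of members turned direction under any alternative run. They were picked as calls and the runs reuse the same libraries, so a turn was unlikely. The call itself was lost for 50 of 56 on log2(TPM + 1) and 51 on log2(TPM + 0.1). Fits of only the groups compared lost 28 of 54, and the run without the low-count filter lost 17 of 56. Results are counts of the 32 entries called, in the order late against early G1, G2 against early G1 and G2 against late G1. DESeq2 size factors in edgeR and a filter of at least 1 CPM in at least 3 libraries kept all 56 calls, and so did DESeq2, which called 8 (untreated) and 5 (auxin) in G2 against late G1. The replicate block, which uses the pairing of same-numbered libraries, also kept all 56; it raised G2 against early G1 to 12 without and 16 with auxin, G2 against late G1 to 14 and 12, auxin in late G1 to 1 and the auxin average to 4. Without the low-count filter, G2 against early G1 without auxin had 4, late against early G1 with auxin 9 and the auxin average 0. Fits of only the groups compared gave 6, 3 and 2 without auxin, and 5 and 1 with auxin for G2 against early and late G1. On log2(TPM + 1) the counts were 2, 0 and 2 without auxin, 1, 0 and 0 with it, and 5 for the auxin average. All tested entries gave 239, 86 and 202, then 152, 63 and 179, and 777 calls. On log2(TPM + 0.1) the counts were 2, 0 and 0, then 1, 1 and 0, and 5. All tested entries gave 212, 66 and 187, then 167, 61 and 187, and 941 calls. The 5 calls in the auxin average were lower on both scales. TPM moved the median of all tested genes in the auxin average to -0.08 and -0.16, against member medians of -0.17 and -0.23. Without the untreated libraries numbered 3, G2 against early G1 without auxin had 1 (1.36% of all tested entries called). G2 against late G1 then had 2 without auxin (3.14%) and 6 with it (7.83%), and the auxin average 0 (3.88%). Leaving out 1 library gave 10 to 12, 4 to 6 and 3 to 5 without auxin, 9 to 11, 5 to 8 and 1 to 2 with it, 0 to 3 for the auxin average and 0 for every other comparison. For these fits, DESeq2 and the run without the low-count filter, shares over all tested entries are not given here. Summing both Rad54b entries, a choice made after seeing the data, kept 53 of 54 calls. The cause of these changes was not tested. Counts were lowest for the second Rad54b entry, Fancg and Rad51c, at means under 10 CPM.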
